A study of Homo sapiens with 12 samples.

Results

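A family of 6 genes was followed through ribosome profiling of HAP1 cells: PRKDC, ATM, ATR, MTOR, SMG1 and TRRAP, which encode the phosphatidylinositol 3-kinase-like kinases. They were chosen by Ensembl identifier, 6 of the 19580 genes in the deposited table, and all 6 were among the 11510 genes that passed the filter on low values (at least 1 RPKM in at least 3 libraries). HAP1 cells, here of wild-type genotype, are near-haploid derivatives of the human leukaemia line KBM-7, and each group held 3 biological replicates, 12 libraries in all. One group received 4-thiouridine (4SU) at 5 uM for 18 h, then UVA at 6 kJ per square metre, and was harvested 30 min later (4SU+UVA). A further group received 4SU alone, at the same dose and for the same time. Another received UVA alone, at the same dose and with the same time to harvest, and the last was untreated. 4SU is a uridine analogue that is built into new RNA and forms bonds with bound protein under UVA, so 4SU+UVA was the crosslinking condition.

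These kinases resemble lipid kinases in sequence but phosphorylate proteins, and all are very large, with long helical repeat arrays ahead of the kinase domain. PRKDC is the catalytic subunit of DNA-dependent protein kinase and acts with the Ku proteins at double-strand breaks, ATM is switched on at such breaks by the MRE11-RAD50-NBN complex, and ATR works with ATRIP on exposed single-stranded DNA. MTOR couples nutrients and growth signals to protein synthesis, SMG1 phosphorylates UPF1 in nonsense-mediated mRNA decay, and TRRAP lacks kinase activity and serves as a scaffold of histone acetyltransferase complexes. The question for these long mRNAs was how their ribosome footprints changed with the nucleoside, with the light and with both.

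The transcripts counted were long, 12784 nt for PRKDC, 12954 nt for ATM, 8158 nt for ATR, 8721 nt for MTOR, 16062 nt for SMG1 and 12590 nt for TRRAP, as recovered from the RPKM values. By RefSeq on GRCh38.p14, the same assembly as the hg38 build of the alignment, PRKDC (ENSG00000253729.8) lies at chr8:47773111-47960136, ATM (ENSG00000149311.20) at chr11:108223067-108369102 and ATR (ENSG00000175054.16) at chr3:142449235-142578733. MTOR (ENSG00000198793.13) lies at chr1:11106535-11262551, SMG1 (ENSG00000157106.18) at chr16:18804860-18926408 and TRRAP (ENSG00000196367.14) at chr7:98878532-99013241. Other genes overlap these spans, among them the protein-coding C11orf65 at ATM and ANGPTL7 within MTOR. SMG1 has 7 pseudogenes named in RefSeq, all on chromosome 16, so its reads may have been divided among copies and its values are uncertain. No source used here says how reads with several matches were counted.

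In ribosome profiling, mRNA outside ribosomes is digested and the protected fragments are counted. Values are footprint densities in RPKM, reads scaled by transcript length and by library total. A lower density can come from less mRNA or from fewer ribosomes on it, and without matched RNA values these cannot be told apart here. They are also relative to each library's total, so fewer cells, or less footprint per cell throughout, would not show. Depth recovered from the table ranged from 1899854 to 5526950 reads with 4SU+UVA, from 3991129 to 4514227 with 4SU, from 3358145 to 5425688 with UVA and from 3785480 to 5832366 in untreated cells. The lowest total belonged to 4SU+UVA replicate 2. The table pairs no identifiers with symbols, so the markers of the line and the partners of these kinases were not analysed here.

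The 250 bases before the RefSeq start are shown for MTOR and ATR, which both fell, by different amounts, with 4SU+UVA against untreated cells. They are also shown for SMG1 and ATM, which changed least of the 6 in that comparison. The minus strand is read for MTOR (chr1:11262552-11262801), ATR (chr3:142578734-142578983) and SMG1 (chr16:18926409-18926658), and the plus strand for the first of 2 windows listed for ATM (chr11:108222817-108223066). Capitals mark CCAAT and GGGCGG on either strand. Neither motif overlapped the other in these windows, but sites of GGGCGG can share a base, as a pair does in SMG1, and each was counted.
MTOR: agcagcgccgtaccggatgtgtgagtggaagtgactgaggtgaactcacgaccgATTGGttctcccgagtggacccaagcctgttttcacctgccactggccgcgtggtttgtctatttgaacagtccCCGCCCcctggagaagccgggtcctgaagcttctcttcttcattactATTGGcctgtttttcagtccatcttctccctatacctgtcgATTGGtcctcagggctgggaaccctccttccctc
ATR: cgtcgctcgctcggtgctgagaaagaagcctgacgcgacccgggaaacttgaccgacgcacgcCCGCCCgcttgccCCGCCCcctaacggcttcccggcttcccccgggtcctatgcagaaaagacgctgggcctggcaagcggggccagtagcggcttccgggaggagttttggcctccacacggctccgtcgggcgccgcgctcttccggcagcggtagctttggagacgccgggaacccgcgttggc
SMG1: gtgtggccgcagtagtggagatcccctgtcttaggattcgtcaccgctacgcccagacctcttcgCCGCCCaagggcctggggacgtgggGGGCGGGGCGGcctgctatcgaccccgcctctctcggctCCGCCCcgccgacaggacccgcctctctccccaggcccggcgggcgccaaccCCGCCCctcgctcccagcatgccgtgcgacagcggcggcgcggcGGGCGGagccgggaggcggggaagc
ATM: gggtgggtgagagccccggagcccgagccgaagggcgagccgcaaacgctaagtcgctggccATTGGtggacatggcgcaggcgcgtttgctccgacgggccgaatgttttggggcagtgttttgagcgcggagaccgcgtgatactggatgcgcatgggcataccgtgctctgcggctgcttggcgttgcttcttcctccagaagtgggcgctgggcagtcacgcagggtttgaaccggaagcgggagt
MTOR held CCAAT 3 times and GGGCGG 1 time, ATR held GGGCGG 2 times and no CCAAT, SMG1 held GGGCGG 6 times and no CCAAT, and ATM held CCAAT 1 time and no GGGCGG. Of 22199 such windows of protein-coding genes, 32.7% held CCAAT and 53.7% held GGGCGG. These counts describe letters, not bound sites.

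With 4SU+UVA, footprints on PRKDC, ATR, TRRAP, MTOR and ATM were lower than in untreated cells, and those on SMG1 did not pass the test. PRKDC kept 25.4% of its untreated mean, ATR 37.0%, TRRAP 42.7%, MTOR 55.7% and ATM 71.8%, while SMG1 stood at 96.3%. In all, 5 of 6 genes were lower and 0 higher (limma, adjusted p under 0.05), where 18.4% of the 11510 genes tested were lower and 40.6% higher. The split over all genes depended on scaling, at 2122 lower and 4674 higher as reported, 2888 lower and 3107 higher under median centring and 2910 lower and 3011 higher under quantile normalisation. The libraries of the 2 groups did not overlap for those 5 genes, all lower, which held for 20.2% of genes tested. The median log2 change was -1.0 for the 6 genes and 0.23 for all genes, and the median over all genes was 0.06 under median centring. A given change therefore lay 0.23 further down when taken relative to the median gene.

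Among the DNA damage kinases, PRKDC had 31.1, 33.9 and 37.1 RPKM in the 4SU+UVA libraries, against 135, 132 and 134 RPKM in the untreated libraries. Every 4SU+UVA library lay far below every untreated one, and the means were 34.0 ± 3.01 and 134 ± 1.87 RPKM (SD, n = 3 each). On the scale of log2(RPKM + 0.5) PRKDC fell by 1.96 (SE 0.07, limma adjusted p = 4.6e-11). Only 12 of the 11510 genes had a more negative value. PRKDC was by far the most densely read of the 6, and its values rest on 823 to 2194 reads in a 4SU+UVA library and on 6548 to 10000 in an untreated one.

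ATR had 3.90, 3.74 and 4.43 RPKM with 4SU+UVA, against 9.97, 11.6 and 11 RPKM in untreated cells. The groups did not overlap, and the means were 4.02 ± 0.359 and 10.9 ± 0.831 RPKM (SD, n = 3 each). ATR fell by 1.33 (SE 0.11, limma adjusted p = 1.6e-07), on 58 to 176 reads in a 4SU+UVA library and 308 to 525 in an untreated one.

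ATM had 2.56, 3.82 and 3.17 RPKM with 4SU+UVA, against 4.71, 4.56 and 4.01 RPKM in untreated cells. These groups also did not overlap, but the highest 4SU+UVA library came close to the lowest untreated one, with means of 3.18 ± 0.632 and 4.43 ± 0.369 RPKM (SD, n = 3 each). ATM fell by 0.43 (SE 0.15, limma adjusted p = 0.02). This call was lost without 4SU+UVA replicate 1 (adjusted p = 0.088), without untreated replicate 1 (0.065), without untreated replicate 2 (0.058) and in a limma fit of these 2 groups alone (0.051), with extremes of 0.00014 and 0.088 across alternatives.

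TRRAP, the scaffold without kinase activity, had 7.95, 8.99 and 8.97 RPKM with 4SU+UVA, against 20.5, 19.6 and 20.6 RPKM in untreated cells. The libraries of each group were tightly placed and far apart, with means of 8.64 ± 0.597 and 20.2 ± 0.535 RPKM (SD, n = 3 each). TRRAP fell by 1.18 (SE 0.09, limma adjusted p = 9.5e-08).

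MTOR, the growth kinase, had 9.81, 12 and 10.7 RPKM with 4SU+UVA, against 19.2, 19.9 and 19.3 RPKM in untreated cells. The groups did not overlap, and the untreated density was close to that of TRRAP, with means of 10.8 ± 1.07 and 19.5 ± 0.350 RPKM (SD, n = 3 each). MTOR fell by 0.82 (SE 0.09, limma adjusted p = 3.1e-06).

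SMG1, the decay kinase and the longest of the 6 transcripts, had 3.32, 4.46 and 4.83 RPKM with 4SU+UVA, against 4.67, 3.99 and 4.43 RPKM in untreated cells. Its groups overlapped, with 4SU+UVA replicate 1 below and replicate 3 above all untreated libraries. The means were 4.20 ± 0.783 and 4.36 ± 0.347 RPKM (SD, n = 3 each), a log2 difference of -0.06 (95% interval -0.38 to 0.26, limma adjusted p = 0.75). Without 4SU+UVA replicate 1 the difference was 0.08. Under quantile normalisation it was -0.40 and passed (limma adjusted p = 0.025), with extremes of 0.025 and 0.95 across alternatives.

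**Figure D1:**
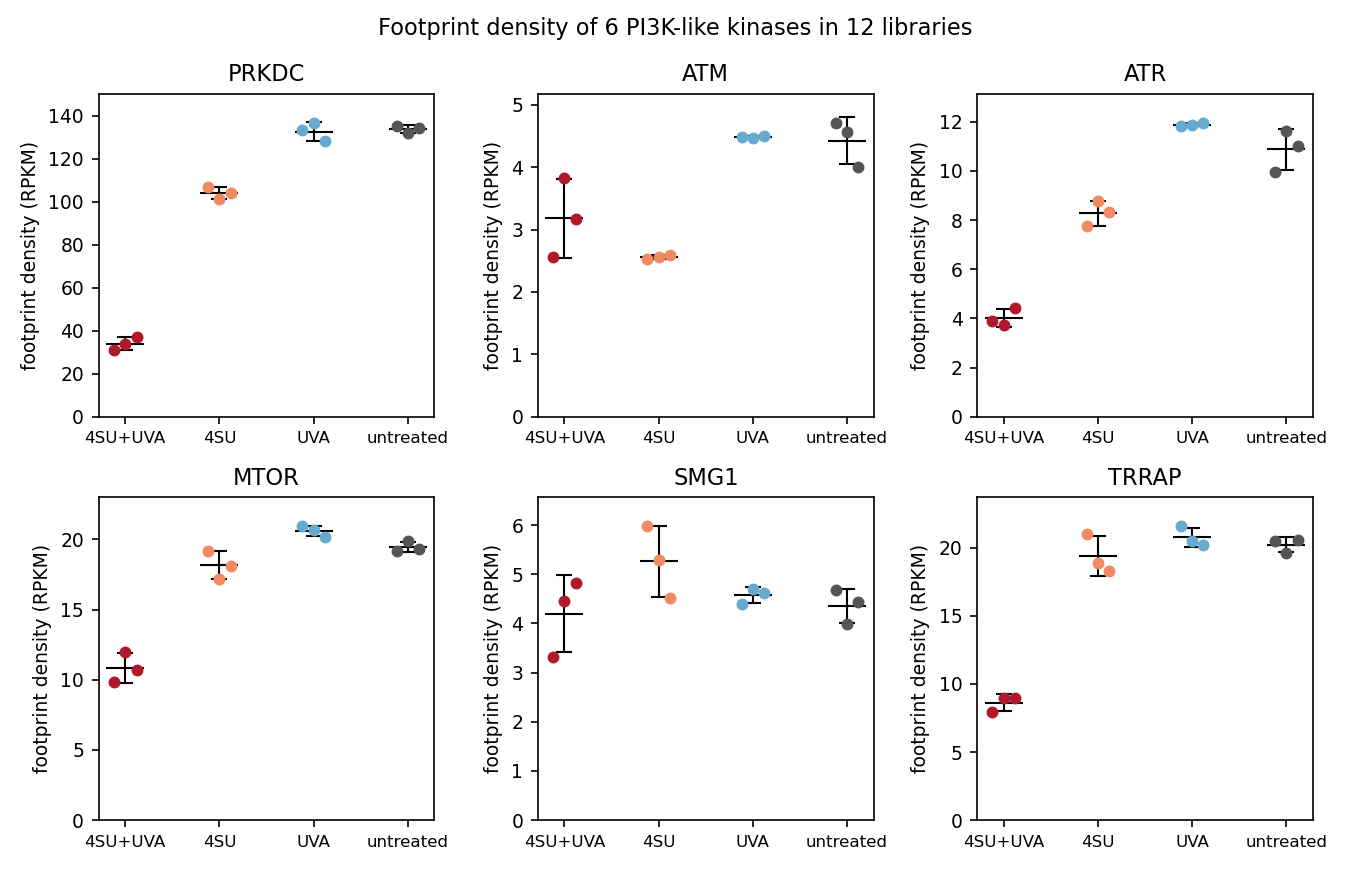
Footprint density in RPKM (vertical axes, each starting at 0) of the 6 kinases in the 12 libraries, one point per library, by group. Bars show the mean and SD of 3 libraries. PRKDC lies at 31.1 to 37.1 RPKM with 4SU+UVA and at 132 to 135 RPKM in untreated cells, whereas the SMG1 groups overlap.

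The order of densities differed between the groups. With 4SU+UVA, PRKDC was followed by MTOR and TRRAP, whose ranges of 9.81 to 12 and 7.95 to 8.99 RPKM did not overlap, and then by SMG1, ATR and ATM, whose ranges overlapped. In untreated cells, PRKDC was followed by TRRAP and MTOR, which overlapped, then by ATR alone at 9.97 to 11.6 RPKM, and then by ATM and SMG1, which overlapped. Of the recovered lengths over all genes, 34.2% were multiples of 3, so they were not all coding lengths. The order between genes may also reflect untranslated stretches, which was not tested, and the place of SMG1 is uncertain because of its pseudogenes. The 6 transcripts together took 0.0701 to 0.0835% of a library's reads with 4SU+UVA, 0.187 to 0.199% with 4SU, 0.230 to 0.241% with UVA and 0.232 to 0.237% in untreated cells. PRKDC supplied 55.8 ± 1.55% of those reads with 4SU+UVA, 69.4 ± 0.876% with 4SU, 71.7 ± 0.557% with UVA and 72.7 ± 0.202% in untreated cells (SD, n = 3 each).

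4SU without light lowered the 3 DNA damage kinases and left the other 3 genes without a call. ATM stood at 58.0% of its untreated mean, ATR at 76.1% and PRKDC at 77.8%, while MTOR was at 93.4%, TRRAP at 95.8% and SMG1 at 121%. Thus 3 of 6 genes were lower and 0 higher (limma, adjusted p under 0.05), where 3.12% of all genes tested were lower and 11.3% higher. Over all genes that was 359 lower and 1295 higher, but 1080 lower and 640 higher under median centring and 497 lower and 678 higher under quantile normalisation, while the 6 genes gave 3 lower under both. For 4 genes, MTOR added, all 4SU libraries lay below all untreated ones, as for 10.1% of genes tested.

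ATM had 2.53, 2.57 and 2.60 RPKM with 4SU, a narrow range below all untreated libraries, and averaged 2.57 ± 0.0328 RPKM, against 4.43 ± 0.369 RPKM in untreated cells (SD, n = 3 each). It fell by 0.68 (SE 0.15, limma adjusted p = 0.0079), and 0.487% of genes tested had a lower value. PRKDC had 107, 101 and 104 RPKM with 4SU, again below every untreated library, and fell by 0.36 (SE 0.07, limma adjusted p = 0.004). ATR had 7.74, 8.76 and 8.31 RPKM with 4SU and did not overlap the untreated libraries either. It fell by 0.37 (SE 0.11, limma adjusted p = 0.029), but the call was lost without 4SU replicate 1 (adjusted p = 0.11), 4SU replicate 2 (0.057), untreated replicate 2 (0.12) or untreated replicate 3 (0.094), with extremes of 0.0012 and 0.12 across alternatives.

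MTOR had 19.2, 17.2 and 18.1 RPKM with 4SU, all below the untreated libraries though the nearest differed only in the second decimal, for a log2 difference of -0.10 (95% interval -0.29 to 0.09, limma adjusted p = 0.5). TRRAP had 21.0, 18.8 and 18.3 RPKM, which overlapped the untreated range, for a difference of -0.06 (95% interval -0.25 to 0.13, limma adjusted p = 0.69). SMG1 had 5.97, 5.29 and 4.52 RPKM, with the lowest library inside the untreated range. Its difference of 0.24 did not pass (95% interval -0.08 to 0.56, limma adjusted p = 0.31).

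UVA without 4SU changed none of the 6 genes detectably. Of 6 genes, 0 passed (limma, adjusted p under 0.05), where 0.278% of all genes tested were higher and 0.374% lower. With so few genes called, 0 of 6 does not set the kinases apart from other genes. The calls over all genes were 32 higher and 43 lower, where median centring gave 19 higher and 48 lower, and quantile normalisation 22 higher and 20 lower. Among the 6, 0 had an unadjusted p under 0.05 and 0 passed with limma voom on recovered reads, without a share over all genes beside them. PRKDC had 133, 137 and 128 RPKM with UVA, around its untreated values, for a log2 difference of -0.01 (95% interval -0.16 to 0.13, limma adjusted p = 0.99). ATM had 4.48, 4.47 and 4.50 RPKM, inside the untreated range, for a difference of 0.02 (95% interval -0.29 to 0.33, limma adjusted p = 0.99). ATR had 11.8, 11.9 and 12 RPKM, just above every untreated library, for a difference of 0.13 (95% interval -0.10 to 0.35, limma adjusted p = 0.83).

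MTOR, at 20.9, 20.7 and 20.2 RPKM with UVA, also lay just above every untreated library, and its difference was 0.08 (95% interval -0.11 to 0.27, limma adjusted p = 0.89). These were the 2 of 6 genes whose UVA libraries all lay higher, as for 12.8% of genes tested. SMG1 had 4.39, 4.70 and 4.63 RPKM and TRRAP 21.6, 20.5 and 20.2 RPKM with UVA, both overlapping untreated cells. Their differences were 0.06 (95% interval -0.25 to 0.38) and 0.04 (95% interval -0.15 to 0.23).

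Light given to cells that carried 4SU lowered PRKDC, TRRAP, ATR and MTOR below the 4SU group, but not ATM. PRKDC stood at 32.7% of its 4SU mean, TRRAP at 44.6%, ATR at 48.7%, MTOR at 59.6%, SMG1 at 79.8% and ATM at 124%. Here 4 of 6 genes were lower and 0 higher (limma, adjusted p under 0.05), where 19% of all genes tested were lower and 25% higher. PRKDC fell by 1.60 (SE 0.07, limma adjusted p = 5.5e-10), TRRAP by 1.12 (SE 0.09, adjusted p = 3.3e-07), ATR by 0.96 (SE 0.11, adjusted p = 6.5e-06) and MTOR by 0.72 (SE 0.09, adjusted p = 1.7e-05).

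For ATM the difference was 0.25 in the other direction and did not pass (95% interval -0.06 to 0.56, limma adjusted p = 0.18). The 3 4SU libraries lay close to the lowest 4SU+UVA library. For SMG1 it was -0.30 (95% interval -0.62 to 0.02, limma adjusted p = 0.12). SMG1 passed under quantile normalisation at -0.47 (limma adjusted p = 0.013) and with limma voom on recovered reads at -0.39 (adjusted p = 0.0076), with extremes of 0.0076 and 0.4 across alternatives.

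Set against UVA alone, 4SU+UVA gave 5 of 6 genes lower and 0 higher (limma, adjusted p under 0.05), where 19.8% of all genes tested were lower and 34.7% higher. Over all genes that was 2278 lower and 3989 higher, but 2820 lower and 2900 higher under quantile normalisation. PRKDC fell by 1.95 (SE 0.07, limma adjusted p = 6.6e-11), ATR by 1.46 (SE 0.11, adjusted p = 6.6e-08), TRRAP by 1.22 (SE 0.09, adjusted p = 6.5e-08) and MTOR by 0.90 (SE 0.09, adjusted p = 1.3e-06). ATM fell by 0.45 (SE 0.15, limma adjusted p = 0.017), a call lost without 4SU+UVA replicate 1 (adjusted p = 0.076), with extremes of 9.5e-05 and 0.076 across alternatives. The SMG1 difference was -0.12 (95% interval -0.44 to 0.19, limma adjusted p = 0.5), and -0.40 under quantile normalisation (adjusted p = 0.027). The comparisons of 4SU+UVA share its 3 libraries, so their values are set side by side and are not independent of each other.

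The interaction, the UVA effect in cells with 4SU minus the UVA effect in cells without it, was below 0 for PRKDC, TRRAP, ATR and MTOR. It was -1.59 for PRKDC (SE 0.10, limma adjusted p = 8.2e-08), -1.16 for TRRAP (SE 0.13, adjusted p = 1.6e-05), -1.08 for ATR (SE 0.15, adjusted p = 0.00014) and -0.80 for MTOR (SE 0.13, adjusted p = 0.00037). This made 4 of 6 genes below the sum of both single effects and 0 above, where 14.1% of all genes tested lay below and 10.7% above. ATM, at 0.23 (95% interval -0.21 to 0.67, limma adjusted p = 0.45), and SMG1, at -0.36 (95% interval -0.81 to 0.09, adjusted p = 0.23), did not pass. SMG1 passed with limma voom on recovered reads, at -0.47 (adjusted p = 0.027).

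**Figure D2:**
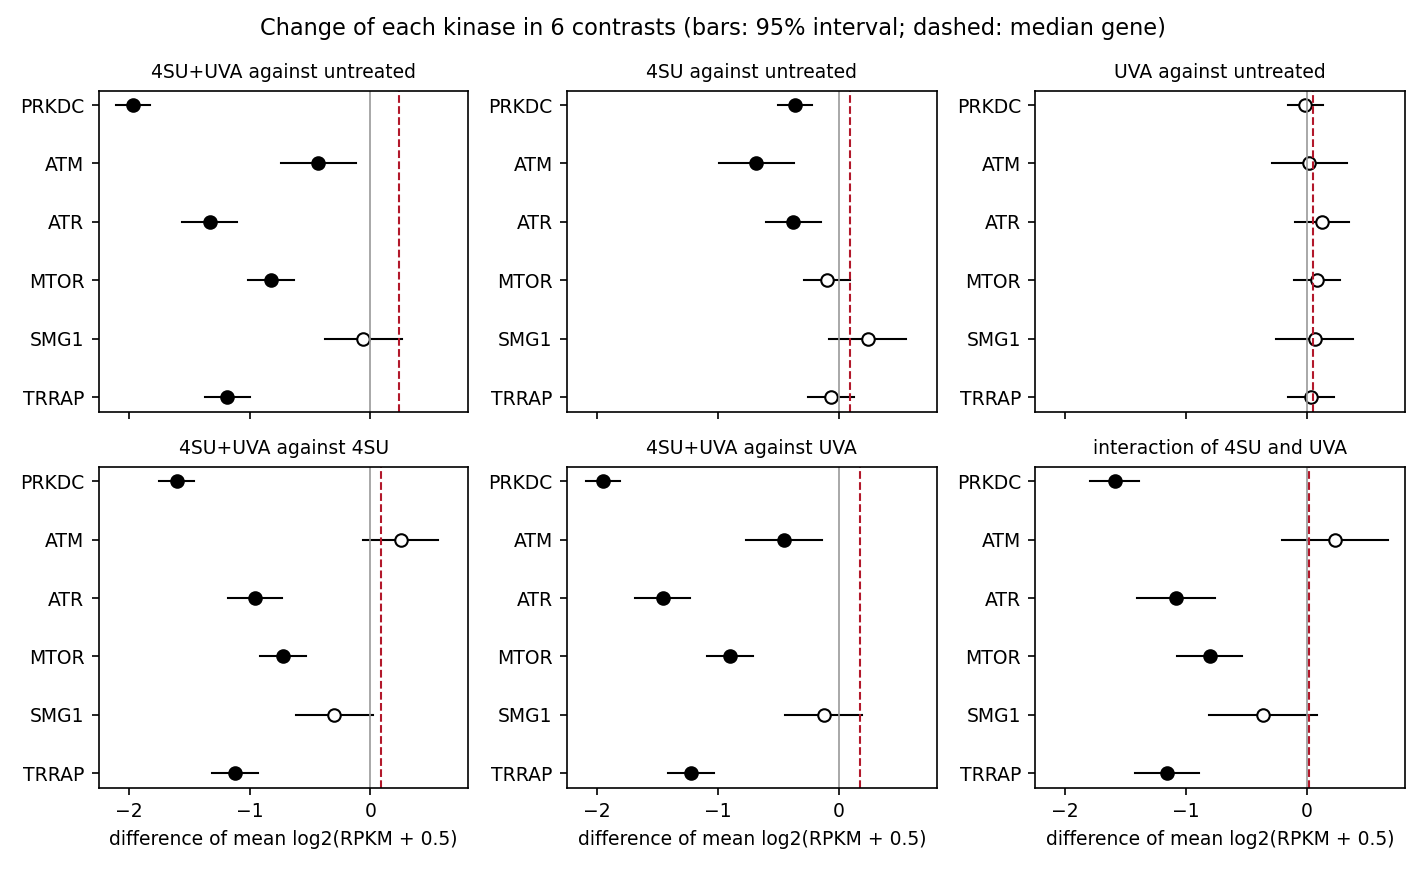
Differences of mean log2(RPKM + 0.5) for the 6 kinases in the 6 contrasts (horizontal axes), with 95% intervals from limma. Filled points had an adjusted p under 0.05, open points did not, and the dashed line is the median of the 11510 genes tested. PRKDC lies at -1.96 for 4SU+UVA against untreated cells and at -0.01 for UVA against untreated cells.

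Other long mRNAs were counted beside the kinases, by transcript length of at least 7500 nt, a limit just under the shortest of the 6. Of 648 such genes tested, 203 were lower and 175 higher with 4SU+UVA than in untreated cells (31.3% and 27.0%), with a median log2 change of 0.04. Among the 316 of them with a mean of at least 5 RPKM, 160 were lower and 58 higher, and the median was -0.29. Among the 332 with a lower mean, 43 were lower and 117 higher, and the median was 0.25. With 4SU against untreated cells, 10.8% of the 316 were lower and 4.43% higher. With 4SU+UVA, 51.3% were lower and 9.81% higher against 4SU, and 51.6% and 14.6% against UVA. The interaction passed below 0 for 40.2% of the 316 and above for 2.85%. UVA against untreated cells gave 0 calls among the 648. The limit of 5 RPKM was chosen after seeing the data and falls between SMG1 and ATR. The mean and the filter on low values both used the 4SU+UVA libraries. Genes could enter the class under 5 RPKM because those libraries were high, so its balance of higher and lower genes carries no test.

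PRKDC was the third most densely read of the 648 and had the fourth lowest change. ATR ranked 27, TRRAP 43, MTOR 91, ATM 175 and SMG1 286 from the lowest change. PRKDC, TRRAP, MTOR and ATR averaged over 5 RPKM across the 12 libraries, at 101, 17.3, 17.3 and 8.76. SMG1 averaged 4.60 and ATM 3.67, and within the 332 less densely read genes they ranked 88 and 40 from the lowest change. Over the 648 genes, Spearman's rho was -0.61 between the change and the mean RPKM in UVA libraries. The change does not use the UVA values, but the filter on low values used all 12 libraries. A gene low in UVA libraries could thus be kept because its 4SU+UVA libraries were high, which makes rho more negative. How far this moved rho was not tested. The scale of the change also understates fold changes of low genes. This rho therefore cannot show whether more densely read genes fell further. Between the change and length, rho was -0.03, but all 648 genes were of at least 7500 nt, so this does not cover shorter transcripts. Both rho values describe genes of the same libraries, which are not independent replicates. Of the 6 kinases, SMG1, whose values are uncertain, was the longest, and ATR, which fell next after PRKDC, the shortest. Whether length played a part was not tested.

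**Figure D3:**
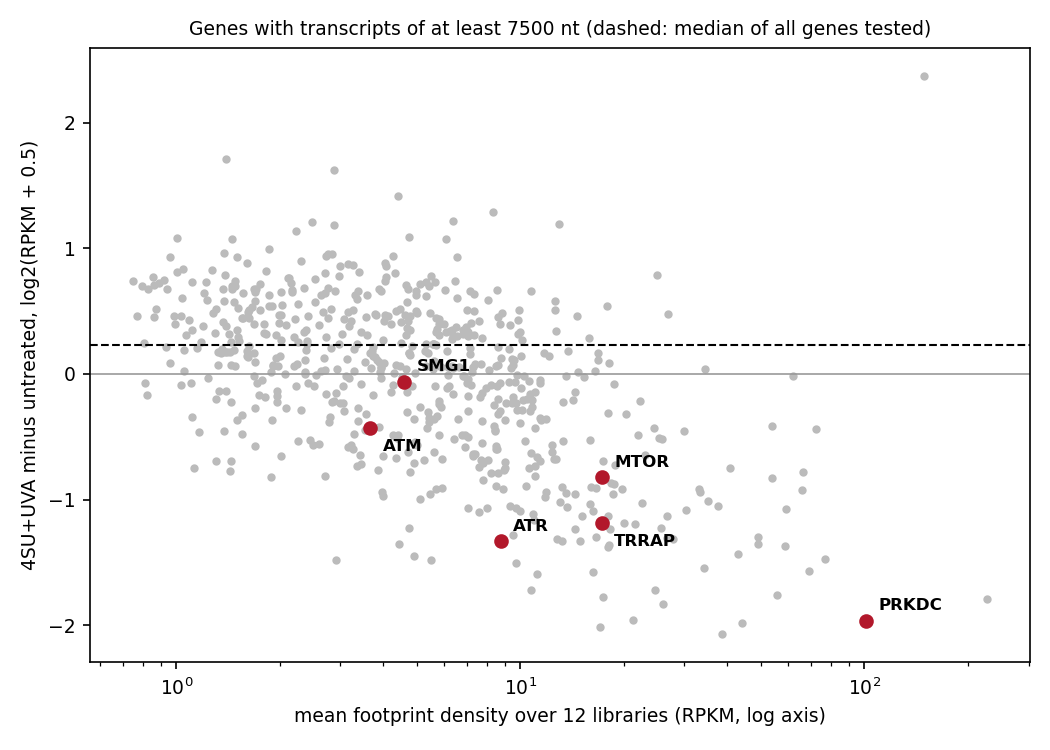
Change with 4SU+UVA against untreated cells (vertical axis, difference of mean log2(RPKM + 0.5)) and mean footprint density over 12 libraries (horizontal log axis, RPKM) of the 648 tested genes with transcripts of at least 7500 nt. Red points are the 6 kinases, and the dashed line is the median of all genes tested, 0.23. PRKDC stands among the most densely read and most lowered genes, and SMG1 near 0.

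Whether the kinases moved apart from each other was asked with the ratio of 2 kinases within a library, taken as a difference of log2(RPKM + 0.5), in which the scaling of the library cancels but for the 0.5. For all 15 pairs the ratio differed between the 4 groups (exact permutation test of F over 15400 regroupings of the 12 libraries, p from 6.49e-05, the smallest possible, to 0.0218, and adjusted p from 0.000779 to 0.0218 over the 15 pairs). The pairs share their 6 genes and are not independent. Between 4SU+UVA and untreated cells alone, the ratios did not overlap in 14 of 15 pairs, but 3 libraries against 3 cannot give an exact permutation p under 0.1. Pairs of other genes were not counted, and 18.4% of genes tested were lower and 40.6% higher in that comparison (limma). The pair counts therefore do not set the kinases apart from other genes.

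The log2 ratios of PRKDC to each other kinase were lower in all 4SU+UVA libraries than in any untreated one. Its log2 ratio to MTOR was 1.61 ± 0.14 with 4SU+UVA, 2.49 ± 0.04 with 4SU, 2.66 ± 0.03 with UVA and 2.75 ± 0.05 in untreated cells (SD, n = 3 each; exact permutation test, p = 6.49e-05). TRRAP and MTOR, close to each other in untreated cells, moved apart, with a log2 ratio of MTOR to TRRAP of 0.31 ± 0.08 with 4SU+UVA, against -0.05 ± 0.06 in untreated cells (SD, n = 3 each; exact permutation test over the 4 groups, p = 0.00506). The pair whose ratios overlapped was ATR and TRRAP, at -1.01 ± 0.13 with 4SU+UVA, against -0.87 ± 0.14 in untreated cells (SD, n = 3 each; exact permutation test over the 4 groups, p = 0.0218).

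ATM and ATR, the paired checkpoint kinases of breaks and of stalled replication, moved differently. Their log2 ratio was -0.31 ± 0.29 with 4SU+UVA, -1.51 ± 0.08 with 4SU, -1.31 ± 0.01 with UVA and -1.21 ± 0.18 in untreated cells (SD, n = 3 each; exact permutation test, p = 0.00026). The ratio was higher in each 4SU+UVA library than in any untreated one and lower in each 4SU library, by 0.90 and -0.31 in the means. These 2 differences were not tested apart from the 4 groups.

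**Figure D4:**
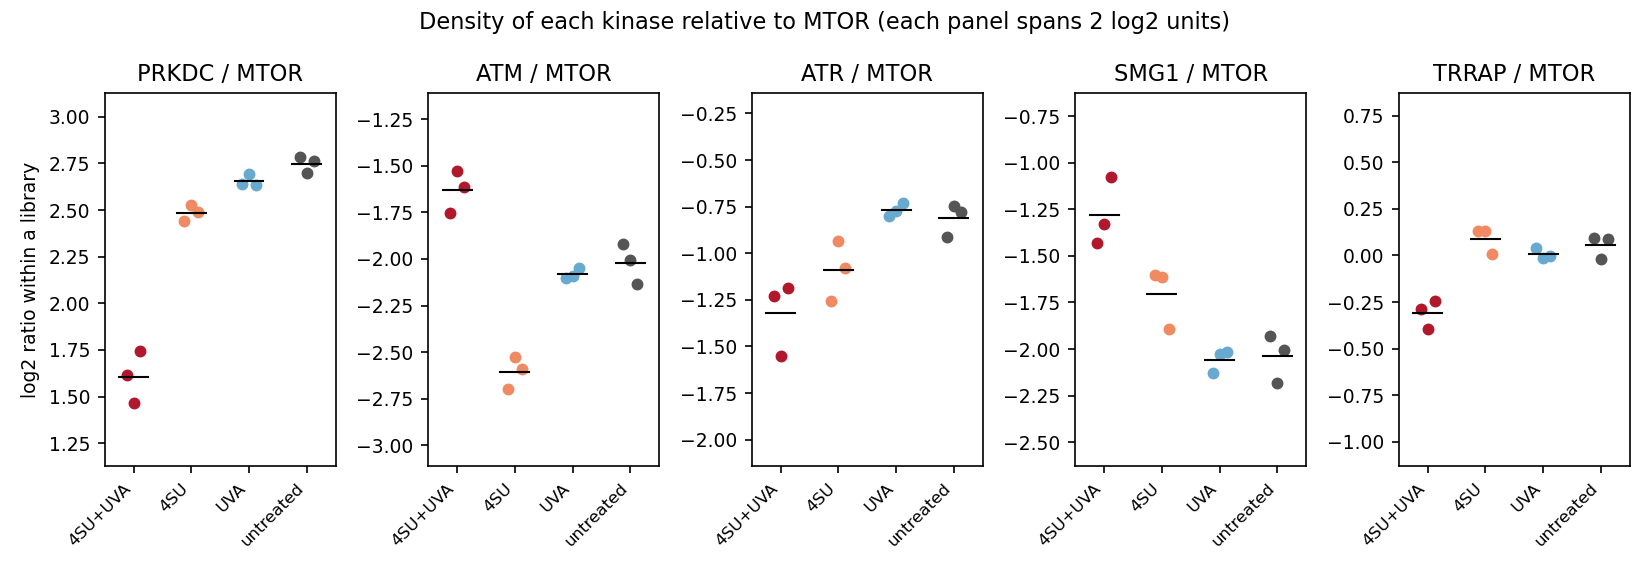
Log2 ratio of each other kinase to MTOR within a library (vertical axes, log2(RPKM + 0.5), each spanning the same distance), one point per library, with the group mean as a line. PRKDC to MTOR averages 1.61 with 4SU+UVA and 2.75 in untreated cells, while ATM to MTOR is lowest with 4SU.

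Genes whose pattern was most like each kinase were found by Pearson's r of log2(RPKM + 0.5) over the 12 libraries, among tested genes with a mean of at least 5 RPKM. PRKDC was most like ENSG00000124207.17, at r = 0.997, and TRRAP most like ENSG00000184634.17, at r = 0.995, and the log2 changes of these genes with 4SU+UVA against untreated cells were -1.49 and -1.20 (limma adjusted p = 4.6e-11 and 1.5e-08). The closest genes reached r of 0.994 for ATR and 0.991 for MTOR, and less for ATM (0.966) and SMG1 (0.854). Among the 6 kinases themselves, PRKDC, ATR, MTOR and TRRAP were alike, with r of 0.947 to 0.989 for their pairs, whereas SMG1 had r of -0.18 to 0.45 with the others and ATM -0.18 to 0.54. The libraries fall into 4 groups and share their scaling, so these r describe likeness and carry no test.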

How the data were processed

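The 12 libraries of HAP1 ribosome footprints were grouped by their sample titles. The authors deposited 1 table of RPKM values for 19580 genes. STAR 2.7.10a and the hg38 build are named, per the submitters' processing notes. No source used here gives the counter, its annotation or any filter, and none mentions molecular identifiers. The table pairs no identifiers with symbols and the reference table lists no Ensembl identifiers, so the 136 pathway and marker genes listed for this work were not tested. Only the 6 kinases, whose identifiers were given with their symbols, are named.

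Library totals, transcript lengths and reads were recovered from the RPKM steps as the smallest whole numbers that fit within 0.001 reads, for all 15937 genes with a read. At totals moved by 1%, 11 of 1000 genes had such a length. On simulated data the step was tested and returned the totals.

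limma 3.58.1 (R 4.3.3, eBayes with a variance trend) was fitted to log2(RPKM + 0.5) over the 11510 genes that reached 1 RPKM in 3 or more libraries, as 4 group means with 8 residual degrees of freedom. Fold changes on this scale understate those of low genes. The model was tested on simulated data. Its p-values are two-sided and were adjusted by Benjamini and Hochberg over all genes of a contrast. Pair ratios used exact permutation tests (numpy 2.4.6). The members, lists and tests were chosen with earlier results of these data known. Named genes are the 6 kinases and, per rule, the 2 genes most correlated with each, of which 2 identifiers are printed. Alternatives were other pseudocounts, filters and scalings, a replicate block, fits of the compared groups, each library left out and limma voom. Sequences are RefSeq's, GRCh38.p14. TRRAP and PRKDC sequences were not used here.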

Additional observations from a re-analysis of the deposited data

Results flagged for a closer look

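The response to UVA differed between cells with and without 4SU at 4 of the 6 kinases, by the interaction term of the limma model over 12 libraries. The log2 interaction was -1.59 for PRKDC (adjusted p = 8.2e-08), -1.16 for TRRAP (adjusted p = 1.6e-05), -1.08 for ATR (adjusted p = 0.00014) and -0.80 for MTOR (adjusted p = 0.00037). Over all genes tested, 14.1% lay below 0 and 10.7% above by this term (limma, adjusted p under 0.05). All 4 kinases were also called lower with 4SU+UVA than with 4SU, as were 19% of genes tested (limma, adjusted p under 0.05).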

How the results depend on the processing

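The count of kinases that changed stayed within 1.5 times the reported one under every alternative run for the 6 contrasts. For 4SU against untreated cells the count was 3 as reported and 2 to 3 when a library was left out. For 4SU+UVA against untreated cells it was 4 to 5 of 6 when a library was left out, 6 under quantile normalisation and 4 in the fit of these groups alone, and with a minimum of 5 RPKM, which dropped ATM and SMG1 before the fit, it was 4 of the other 4. The pairing check found no shared deviation between libraries of the same number (r from -0.05 to 0.07 over 18 pairs), and with the replicate block the counts were 5, 3, 0, 4, 5 and 4 for 4SU+UVA, 4SU and UVA against untreated cells, 4SU+UVA against 4SU, 4SU+UVA against UVA and the interaction, the same as without it. Of 774 values of single kinases under alternatives, 749 kept direction and side of the threshold, 9 lost and 5 gained a call, and 11 changed sign. All sign changes were of values without a call. Against untreated cells, UVA gave -0.0625 for ATM, -0.000356 for MTOR, -0.0175 for SMG1 and -0.0449 for TRRAP under median centring, and -0.0511 for ATM, -0.00251 for SMG1 and -0.0171 for TRRAP under quantile normalisation. With single libraries left out, UVA against untreated cells ran from -0.0435 to 0.0606 for ATM and from -0.0344 to 0.0124 for PRKDC, and SMG1 ran from -0.16 to 0.0820 for 4SU+UVA against untreated cells and from -0.22 to 0.0180 against UVA. The cause was not tested. With limma voom SMG1 also passed for the interaction, at -0.47 (adjusted p = 0.027). Pair ratios passed in 15 of 15 pairs with pseudocounts of 0 and 1 and in 14 to 15 with a library left out, and in 0 of 15 between 4SU+UVA and untreated cells alone, a comparison chosen after seeing the data that cannot give p under 0.1. Limma voom and this comparison were both added after seeing the data. Over all genes, UVA against untreated cells gave 75 calls, and 45 with no filter on low values, 42 under quantile normalisation, 27 without a variance trend and 52 to 81 with a library left out. 4SU against untreated cells gave 1295 higher and 359 lower, 640 higher and 1080 lower under median centring, 678 higher and 497 lower under quantile normalisation, and 726 to 2050 in all with a library left out, falling to 726 and 772 calls when 4SU replicate 1 or 2 was omitted and to 872 and 869 calls when untreated replicate 2 or 3 was omitted. Under median centring the median gene stood at 0.06, and without it at 0.23, for 4SU+UVA against untreated cells. Depth limits ATR and ATM most, at 58 and 94 reads in 4SU+UVA replicate 2.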
